A study of Mus musculus with 12 samples.

Results

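The replication-dependent histone genes encode the core histones that package newly made DNA. They were taken here as every row whose symbol starts with H2ac, H2bc, H3c or H4c followed by a digit, or with the older Hist1h, Hist2h, Hist3h or Hist4h. The rule found 58 of the 41009 gene symbols in the table, 17 for H2A, 18 for H2B, 10 for H3 and 13 for H4, and 3 of the 58 carry a pseudogene name. All were written with the newer symbols, and the linker histone H1 genes fall outside the rule. Their levels were followed across 12 bulk RNA-seq libraries of tumours grown from mCherry-4T1 cells, a line derived from a BALB/c mammary carcinoma, implanted in the fat pads of the mammary gland in BALB/c females aged 4 to 5 weeks.

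Each mouse received 5000000 cells, and treatment began on day 7 by the intraperitoneal route. The 4 groups of 3 libraries each were Ctrl (Ctrl-Fc at 5 mg/kg), VHH-OD-Fc at 3.5 mg/kg, VHH-PD-1-Fc at 2.6 mg/kg and VHH-OD-PD-1-Fc, with both binding arms, at 4.3 mg/kg. VHH denotes the binding domain of a heavy-chain camelid antibody and Fc the invariant tail of an antibody. The protein PD-1 is a receptor that restrains T cells, and what OD stands for is left unexplained in the labels. Whether each library was made from its own mouse is not stated, so the p-values reflect only how far these libraries spread, and that spread may be technical.

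Cells copy their histones along with their DNA, and these genes are therefore transcribed mainly in S phase. Their messenger RNAs are unusual in ending in a short stem-loop instead of a poly(A) tail. The protein Slbp binds the stem-loop and U7 snRNP directs the cut behind it, while a minority of histone genes can also make polyadenylated RNA, as is known from cells that have stopped dividing. Selection with oligo(dT) beads, the step the labels describe, retains RNA with a poly(A) tail. The levels below are therefore levels of what such a library captured, and capture cannot be told apart from the amount of RNA in the tumour.

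The stem-loop is the feature that sets these RNAs apart, so its forms are shown first. Of the 58 genes, 51 were matched by their older symbol to GENCODE M21, of which 46 belong to the Hist1 name group and 5 to Hist2. A stem-loop was searched for in their annotated 3′ UTRs only, and 39 of the 51 had a UTR of at least 30 bases. It was found in 34 of these 39, and the genes with a shorter UTR or none could not match. For other genes the same pattern was searched for in whole transcripts, a wider search, and it matched 11 of 55271 (0.0199%). The stem-loop of the 34 genes took 6 forms, given 5′ to 3′ as DNA with the paired stem in capitals and the loop in lower case.
Form of 18 genes, among them H2ac23, H2ac24, H2ac11, H2ac8 and H2bc8: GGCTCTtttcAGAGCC
Form of 6 H4 genes, among them H4c18, H4c8, H4c4 and H4c6: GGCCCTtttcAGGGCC
Form of 5 genes, H2bc3, H2bc12, H3c3, H3c6 and H3c7: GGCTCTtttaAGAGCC
Form of H4c9 and H4c14: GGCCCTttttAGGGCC
Form of H4c2 and H4c11: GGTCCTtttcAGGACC
Form of H2ac20: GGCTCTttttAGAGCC
The search pattern fixed the stem at 6 bases and the loop at 4, so these lengths are not results. Within that pattern, the H4 genes held stems that no matched H2A, H2B or H3 gene had.

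Histone levels were low. FPKM counts fragments per kilobase of transcript and per 1000000 fragments, so it can be compared between genes. The 58 genes summed to 57.8 to 121 FPKM per library, which was 0.0149% to 0.0306% of the summed FPKM of all genes. Over the 12 libraries 4 genes had a mean above 5 FPKM, 24 had a mean from 1 to 5 and 30 had a mean under 1. Of the 58, 44 were above 0 in every library.

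The highest mean belonged to H2bc4 (older name Hist1h2bc) at 14.9 FPKM, 16.5% of the summed histone level. Next came the H4 gene H4c9 at 7.32, the H2A gene H2ac23 at 6.03 and the H2B gene H2bc8 at 5.68. They were followed by H2ac24 at 3.51, H4c18 at 3.40, H3c11 at 3.08 as the highest H3 gene, H2bc3 at 2.60, H2ac11 at 2.39 and H4c8 at 2.26. The highest gene of the Hist2 group was H2bc21 (Hist2h2be) at 2.12. These are means over all groups, and for several of these genes some groups did not overlap, as the values below show.

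The annotated ends of the higher genes varied. The poly(A) signal AATAAA or ATTAAA was searched for in the last 50 bases. H2bc4 had a 3′ UTR of 742 bases with neither a stem-loop match nor that signal, and H4c9 had both. H2bc21 had a UTR of 2192 bases with such a signal and no stem-loop. Across the matched genes the separation was slight: the median of mean FPKM was 1.14 for the 34 genes with a stem-loop, 1.18 for the 5 with a UTR but no stem-loop, and 0.885 for the 12 without a UTR of 30 bases. H2ac23 and H2bc8, among the highest 4, had a stem-loop and no poly(A) signal there.

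**Figure D1:**
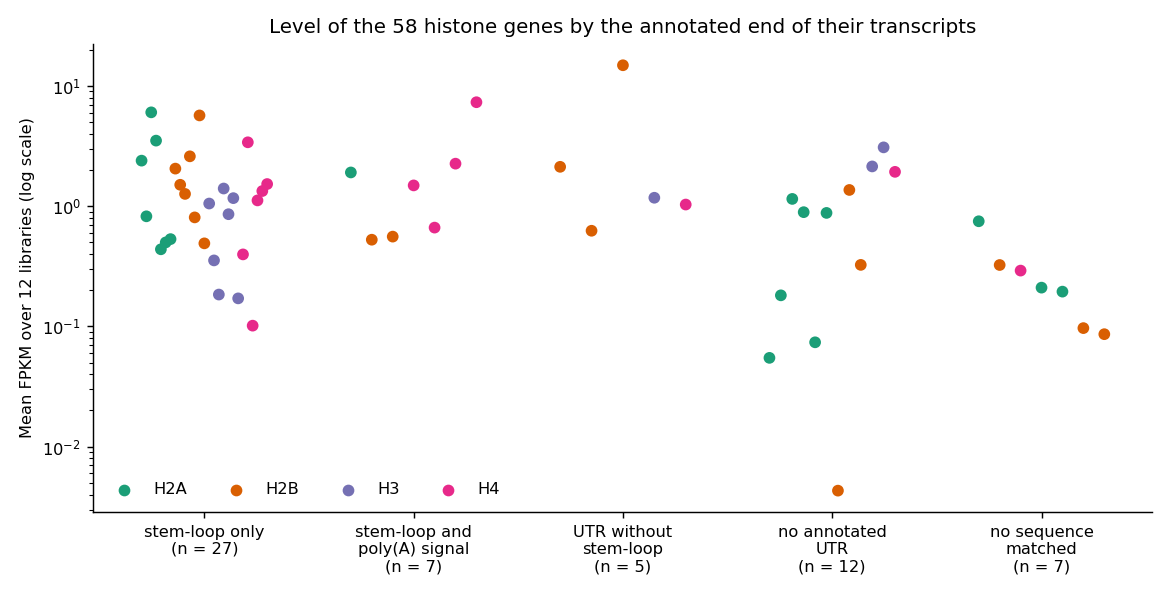
Mean FPKM over the 12 libraries, on a log scale, for the 58 histone genes grouped by the annotated end of their transcripts, 1 point per gene coloured by class. The highest point is H2bc4 at 14.9 FPKM among genes with a UTR but no stem-loop, and the lowest is H2bc1.

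The testis-specific gene H2bc1 (Hist1h2ba) was listed above 0 in 1 library only, Ctrl 3, at 0.0517 FPKM, which corresponds to 1 read. Of the 4 male germ cell markers in the table, Tnp1, a nuclear protein of sperm, was listed at 0 in 11 of 12 libraries. Acrv1 was at 0 in 7 libraries and Tnp2 in 2, while Prm1 was above 0 in every library (up to 1.32 FPKM). A gene entered the test when its FPKM reached 1 in at least 3 of the 12 libraries, and 35 of the 58 histone genes did so (9 H2A, 10 H2B, 7 H3 and 9 H4). Just inside were H2ac20, H2bc7, H2ac25 and H2bc22, with exactly 3 libraries at 1 or more. Just outside was H2bc15, with 1 library at 1 or more (1.0 FPKM in VHH-PD-1-Fc 3). The 23 untested genes are described by their means only.

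Summed by class, every class had its highest mean in the tumours given the construct with both arms. The 17 H2A genes summed to 14.6, 11.7 and 15.6 FPKM in Ctrl, 17.0, 15.7 and 10.9 in VHH-OD-Fc, 14.9, 25.2 and 28.2 under VHH-PD-1-Fc and 29.7 to 32.7 in VHH-OD-PD-1-Fc. The 10 H3 genes summed to 8.30, 5.96 and 9.64 in Ctrl, 9.30, 7.62 and 5.79 in VHH-OD-Fc, 4.58, 10.3 and 19.8 under VHH-PD-1-Fc and 20.0, 19.2 and 18.5 in VHH-OD-PD-1-Fc. For H2A and H3, each VHH-OD-PD-1-Fc library lay above each Ctrl and VHH-OD-Fc library, while VHH-PD-1-Fc 3 held more H3 than 2 of them.

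The 18 H2B genes had means near each other with both arms and in Ctrl, 40.1 and 38.2 FPKM. They summed to 43.1, 35.4 and 36.0 FPKM in Ctrl, 37.2, 29.4 and 31.4 in VHH-OD-Fc, 24.0, 30.8 and 36.0 under VHH-PD-1-Fc and 38.4, 39.4 and 42.6 in VHH-OD-PD-1-Fc, and Ctrl and VHH-OD-PD-1-Fc overlapped. The 13 H4 genes summed to 20.2, 21 and 23 in Ctrl, 20.2, 20.3 and 20.6 in VHH-OD-Fc, 14.3, 25.4 and 22.4 under VHH-PD-1-Fc and 32.6, 26.8 and 27.5 in VHH-OD-PD-1-Fc. For H4, each library with both arms lay above each of the other 9. All sums are descriptions, with no test. In bulk tissue, fewer cells of a type and less RNA per cell cannot be told apart.

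**Figure D2:**
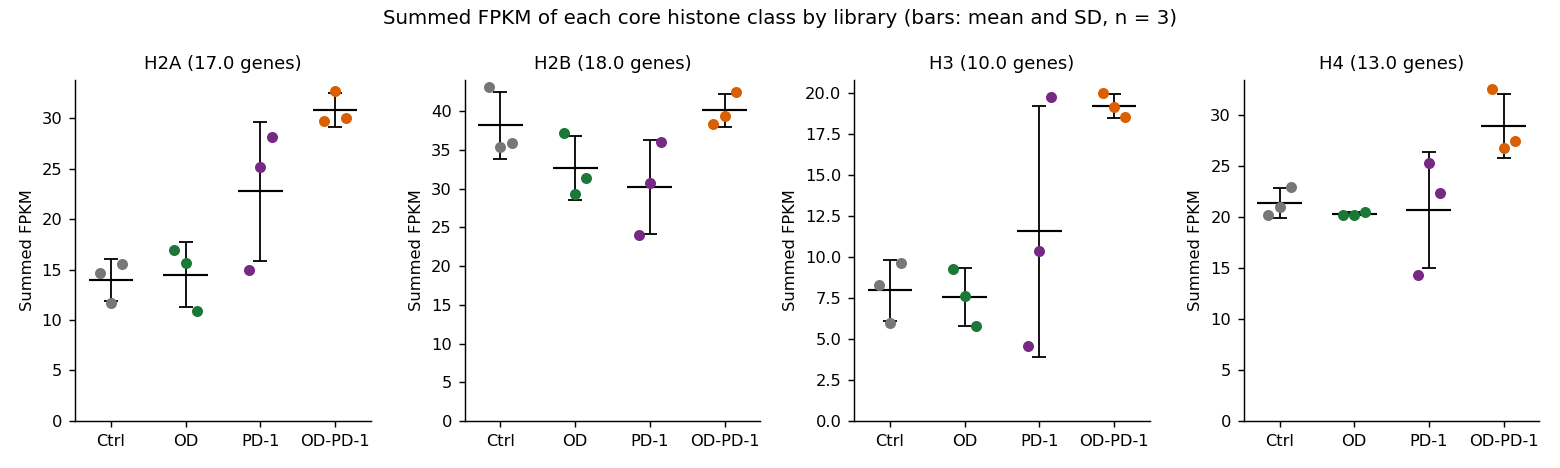
Summed FPKM of each core histone class in each library (y axis from 0; points are libraries, lines and bars are mean and SD of 3 libraries; OD, PD-1 and OD-PD-1 stand for the VHH-Fc constructs). The 3 VHH-OD-PD-1-Fc libraries lie between 29.7 and 32.7 for H2A, above all Ctrl libraries, whereas for H2B the 2 groups overlap.

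Several facts of the libraries bear on what follows. Depth, estimated from the steps between low FPKM values, was 43.6 to 61.0 M reads per library (M, 1000000), and the median histone gene had 29 reads in a library, so counting error alone is large for the lower genes. The 6 libraries with the PD-1 arm differed from the other 6 across the genome: the median log2 fold change of the 14306 genes tested was -0.19 for VHH-PD-1-Fc and -0.14 for VHH-OD-PD-1-Fc against Ctrl. The labels give no processing dates, so handling and the presence of that arm cannot be told apart. Libraries of VHH-OD-PD-1-Fc resembled one another most (Pearson's r across genes 0.990 to 0.991, against 0.953 to 0.984 within the remaining groups), though they differed by more than sampling noise.

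Transcript length moved with the same contrasts. Of the tested genes other than these histones, 1900 have less than 1000 bases of exon, and their median log2 fold change was 0.27 for VHH-PD-1-Fc and 0.35 for VHH-OD-PD-1-Fc against Ctrl. Most of the histone genes are that short, with a median longest transcript of 520 bases. An alternative that removes trends in length and GC content, over 34 of the 35 tested histone genes, is given beside the counts of the comparisons below.

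VHH-OD-Fc against Ctrl addresses the OD arm alone. No histone gene was called, where a call is a Benjamini-Hochberg adjusted p under 0.05 in limma, two-sided, over all 14306 genes (0 of all genes were called, 0%). No tested histone gene reached an unadjusted p under 0.05 either, against 3.14% of all genes. Log2 fold changes, on the log2(FPKM + 1) scale that understates the change of low genes, ran from -0.51 to 0.39 with a median of -0.06, beside -0.02 over all genes. Of the 58, 39 had a lower mean than in Ctrl and 19 a higher one (32.8% higher, beside 35.6% of all rows). The lowest and the highest were those of H2bc13, at 1.77, 0.979 and 1.09 FPKM in Ctrl and 0.893, 0.102 and 0.905 in VHH-OD-Fc, and H2bc3, at 1.64, 1.97 and 1.13 in Ctrl and 2.55, 1.45 and 3.36 in VHH-OD-Fc.

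VHH-PD-1-Fc against Ctrl addresses the PD-1 arm alone. Of the 35 tested histone genes 3 were called higher, all H2A, and 2 were called lower, 1 H2B and 1 H4, where 14.6% of all genes were called higher and 32.3% lower. The share called higher, 8.57%, was below the background over all genes, and among the 30 histone genes under 1000 bases it was 10%, beside 35.8% of the other short genes. The median log2 fold change of the 35 was 0.25, beside -0.19 over all genes. Among short genes it was 0.28 for the histone genes and 0.27 for the others, so the histone genes lay near other short genes. With length and GC trends removed the median of the histone genes was 0.07, beside 0.02 over all genes, with 2 called higher and 2 lower.

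H2bc8 (Hist1h2bg), an H2B gene, fell most. It stood at 9.11, 12.2 and 6.94 FPKM in Ctrl, 13.3, 5.48 and 6.53 in VHH-OD-Fc, 0.708, 0.816 and 3.51 under VHH-PD-1-Fc and 2.37, 2.88 and 4.38 in VHH-OD-PD-1-Fc. All 6 libraries with the PD-1 arm lay below all 6 without it. In recovered reads the gap was 175 to 386 against 20 to 137. The log2 fold change for VHH-PD-1-Fc against Ctrl was -2.08 ± 0.39 (SE, limma adjusted p = 0.0018), and it was called lower under each of the 25 alternatives run, between -2.78 and -1.83.

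H2ac23 (Hist1h2ao), the highest H2A gene, stood at 4.46, 2.29 and 3.52 FPKM in Ctrl and 4.42, 8.50 and 8.59 in VHH-PD-1-Fc. The log2 fold change was 0.87 ± 0.27 (SE, limma adjusted p = 0.021), and VHH-PD-1-Fc 1 overlapped the Ctrl range. H2ac11 (Hist1h2ag) stood at 1.72, 0.850 and 1.27 in Ctrl and 2.21, 3.50 and 3.11 in VHH-PD-1-Fc, without overlap, with a log2 fold change of 0.79 ± 0.20 (SE, limma adjusted p = 0.0085). H2ac13 (Hist1h2ai) stood at 0.756, 0.549 and 1.0 in Ctrl and 1.06, 1.69 and 2.41 in VHH-PD-1-Fc, a rise of 0.60 on the log2 scale whose call was lost in 13 of 24 alternatives. It reached 1 FPKM in fewer than 3 libraries without the PD-1 arm, so it passed the filter through the groups where it was high. H4c9 was the gene nearest the threshold, at 6.11, 9.53 and 8.85 in Ctrl and 4.55, 5.33 and 7.0 in VHH-PD-1-Fc, with a log2 fold change of -0.46 ± 0.18 (SE, limma adjusted p = 0.0498), and its call was lost in 18 of 25 alternatives.

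The libraries of VHH-PD-1-Fc spread widely. VHH-PD-1-Fc 1 held the lowest histone sum of all libraries, 57.8 FPKM, and VHH-PD-1-Fc 2 and 3 held 91.7 and 106. Without VHH-PD-1-Fc 1, 9 histone genes were called higher and 1 lower. Without Ctrl 2, or without library 2 or 3 of VHH-PD-1-Fc, 1 was called higher.

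VHH-OD-PD-1-Fc against Ctrl addresses both arms together. Of the 35 tested histone genes 13 were called higher and 1 lower, where 15.1% of all genes were called higher and 27.1% lower. Those called higher were 4 of 9 H2A, 4 of 10 H2B, 3 of 7 H3 and 2 of 9 H4 genes. Their share, 37.1%, was above that over all genes. Among the 30 histone genes under 1000 bases the share was 40%, beside 37.4% of the other short genes, so the share called higher was near that of short genes in general. The median log2 fold change of the 35 was 0.54, beside -0.14 over all genes and 0.35 over the other short genes. Of all 58 genes, 43 had a higher mean than in Ctrl (74.1%, beside 54.0% of all rows).

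With trends in length and GC content removed, 6 were called higher and 1 lower, and the median was 0.35, beside 0.02 over all genes. Of the 13, H3c3, H3c6 and H2bc22 reached 1 FPKM in no library without the PD-1 arm, and H2bc12 and H4c4 did so in fewer than 3. These 5 passed the filter only through the groups where they were high, and the count of 13 includes them. When the 3 libraries with both arms were counted as 1 sample, because of their likeness, 0 were called in either direction. Leaving out Ctrl 2, Ctrl 3 or VHH-OD-PD-1-Fc 1 gave 7, 8 and 8 called higher.

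Among the H2A genes, H2ac24 (Hist1h2ap) rose most. It stood at 2.01, 1.14 and 2.93 FPKM in Ctrl, 1.85, 1.85 and 0.954 in VHH-OD-Fc, 1.91, 3.95 and 5.70 under VHH-PD-1-Fc and 5.04, 7.06 and 7.71 in VHH-OD-PD-1-Fc. Each VHH-OD-PD-1-Fc library exceeded each Ctrl library, with a log2 fold change of 1.36 ± 0.31 (SE, limma adjusted p = 0.0056). H2ac23 reached 12.2, 9.13 and 8.24 in VHH-OD-PD-1-Fc, against 2.29 to 4.46 in Ctrl, a log2 fold change of 1.31 ± 0.27 (SE, limma adjusted p = 0.0031). H2ac11 reached 3.87, 4.21 and 3.02, against 0.850 to 1.72 in Ctrl, a log2 fold change of 1.05 ± 0.20 (SE, limma adjusted p = 0.0022). H2ac8 also rose and is described with its neighbour H2bc8 below.

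These H2A genes are hard to tell apart. Of the 150-base windows in their transcripts, 91.5% for H2ac23, 91.0% for H2ac24 and 65.5% for H2ac11 also occur in another gene, and the median over the 14 matched H2A genes was 58.9%. It was 22.3% for H2B, 26.4% for H3 and 17.8% for H4. How the authors assigned reads that match several copies is not given in the sources used here, so a rise of 1 of these H2A genes is uncertain as to which copy it came from. Of the 10 tested genes with over 50% of windows shared, 5 were called higher for VHH-OD-PD-1-Fc relative to Ctrl. Of the 24 with less, 8 were called higher and 1 lower. For scale, 15.1% of all genes and 37.4% of the other genes under 1000 bases were called higher. The matched genes with over 50% shared are also shorter, with a median longest transcript of 420.5 bases beside 520 over all matched genes. The difference between the sets was not tested.

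Among the H3 genes, H3c11 (Hist1h3i) stood at 1.49, 1.53 and 2.61 FPKM in Ctrl, 3.21, 2.07 and 1.96 in VHH-OD-Fc, 0.852, 2.68 and 4.28 under VHH-PD-1-Fc and 4.36, 6.33 and 5.63 in VHH-OD-PD-1-Fc. The last group did not overlap with Ctrl, with a log2 fold change of 1.17 ± 0.32 (SE, limma adjusted p = 0.014). H3c3 (Hist1h3c) rose from 0.748 to 0.977 in Ctrl to 2.91, 3.18 and 1.95 in VHH-OD-PD-1-Fc, by 1.0 on the log2 scale. H3c6 (Hist1h3e) went from 0.869 to 0.903 in Ctrl to 2.27, 3.04 and 1.44, by 0.75. The 7 tested H3 genes all had a positive log2 fold change, from 0.15 to 1.17, beside 38.3% of all tested genes with a positive one. However, H3c1, H3c3, H3c4, H3c6 and H3c8 reached 1 FPKM in fewer than 3 libraries without the PD-1 arm. They passed the filter only with the help of libraries that had that arm, so their shared sign is not independent of the filter.

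Among the H4 genes, H4c6 (Hist1h4f) stood at 1.0, 0.402 and 1.12 FPKM in Ctrl and 2.63, 1.13 and 5.31 in VHH-OD-PD-1-Fc, and H4c4 (Hist1h4d) at 1.39, 0.50 and 0.506 against 2.79, 1.74 and 2.43. Their log2 fold changes were 1.0 and 0.91. The 2 highest H4 genes behaved otherwise. H4c9 stood at 8.56, 6.77 and 6.69 in VHH-OD-PD-1-Fc, within the Ctrl range, with a log2 fold change of -0.12 that was not called. H4c18 stood at 2.67, 2.65 and 3.83 in Ctrl and 6.18, 3.59 and 4.55 in VHH-OD-PD-1-Fc, with a log2 fold change of 0.50 (limma adjusted p = 0.071).

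The H2B genes diverged most. H2bc12 (Hist1h2bk) stood at 0.749, 0.454 and 1.21 FPKM in Ctrl and 2.73, 2.86 and 3.16 in VHH-OD-PD-1-Fc, without overlap. Its log2 fold change was 1.14 ± 0.20 (SE, limma adjusted p = 0.0014), the smallest p of the histone genes in this comparison. H2bc3 rose by 0.90, H2bc22 by 0.85 and H2bc11 by 0.73. H2bc22 was at 0 to 0.253 FPKM in Ctrl and at 1.37, 0.709 and 1.0 in VHH-OD-PD-1-Fc, near the limit of detection. H2bc4, the highest histone gene, was not called. It stood at 16.1, 13.6 and 18.0 in Ctrl, 12.1, 15.1 and 13.6 in VHH-OD-Fc, 14.1, 16.2 and 10.0 under VHH-PD-1-Fc and 16, 16.5 and 16.9 in VHH-OD-PD-1-Fc. Its libraries with both arms overlapped those of Ctrl and VHH-PD-1-Fc and lay above those of VHH-OD-Fc. H2bc21 stood at 4.97, 1.77 and 2.01 in Ctrl and 1.51, 1.87 and 1.58 in VHH-OD-PD-1-Fc, with Ctrl 1 alone high.

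Of the 23 tested genes with a stem-loop, 12 were called higher and 1 lower for VHH-OD-PD-1-Fc relative to Ctrl. Their median log2 fold change was 0.70. For scale, 15.1% of all genes and 37.4% of the other genes under 1000 bases were called higher. The 4 tested genes with a UTR but no stem-loop (H2bc4, H2bc21, H3c8 and H4c1) had none called, with values from -0.47 to 0.54. Of these, H2bc4 and H2bc21 have 1156 and 2620 bases of exon and are thus not among the short genes. Of the 7 tested genes without a UTR of 30 bases, 1 was called higher, with a median of 0.49. The sets thus differ in length as well, and the difference between them was not tested. The H2ac11, H2ac23, H2ac24, H2bc12 and H3c3 calls of this comparison were lost under 1 alternative only, the one that counts the VHH-OD-PD-1-Fc libraries as 1 sample. Of 24 alternatives each, the call was lost in 16 for H4c6, 13 for H2bc3, 12 for H3c6, 10 for H2bc22, 8 for H4c4, 6 for H2bc11, 3 for H3c11 and 2 for H2ac8.

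**Figure D3:**
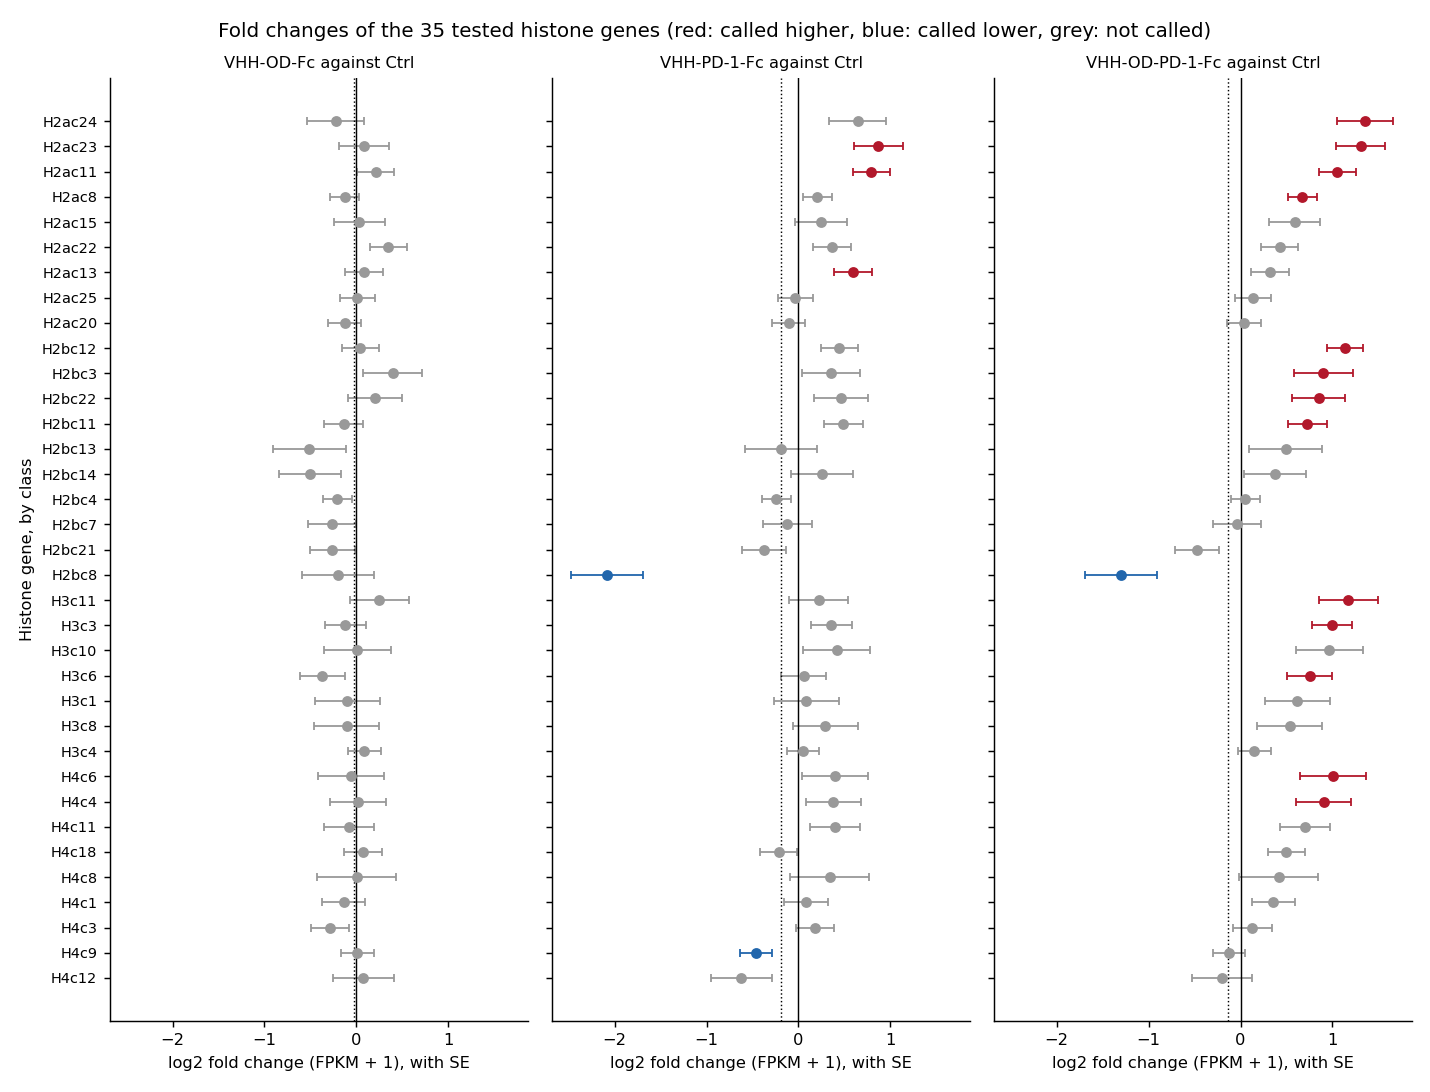
Log2 fold change of FPKM + 1 with its SE for the 35 tested histone genes against Ctrl, 1 panel per construct, with genes ordered by class and by the right panel (solid line at 0, dotted line at the median of all genes, red and blue for genes called higher and lower). No gene is coloured for VHH-OD-Fc, 5 are for VHH-PD-1-Fc and 14 are for VHH-OD-PD-1-Fc, and H2bc8 lies far left in both groups with the PD-1 arm.

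H2bc8 and H2ac8 are neighbours that start back to back, and they were called in opposite directions for VHH-OD-PD-1-Fc relative to Ctrl. The matched genes form 8 such pairs of an H2A and an H2B gene with starts 164 to 249 bases apart. The regions between the starts are shown for 2 pairs, one whose genes were called in opposite directions and one whose genes were both called higher, as RefSeq has them on the plus strand of GRCm38.p6, a mouse build that may not be the one behind the deposited values. The 2 pairs were picked by those calls, and whether the sequence of the regions bears on the changes was not tested. H2bc8 and H2bc11 are read to the right and H2ac8 and H2ac11 to the left. Capitals mark CCAAT (or ATTGG, its reverse), the octamer ATTTGCAT and TATAAA.
H2ac8 to H2bc8, chr13:23571221-23571399: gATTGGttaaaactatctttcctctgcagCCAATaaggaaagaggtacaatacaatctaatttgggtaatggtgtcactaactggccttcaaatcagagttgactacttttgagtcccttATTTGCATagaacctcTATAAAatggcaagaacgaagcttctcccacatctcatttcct
H2ac11 to H2bc11, chr13:22042950-22043197: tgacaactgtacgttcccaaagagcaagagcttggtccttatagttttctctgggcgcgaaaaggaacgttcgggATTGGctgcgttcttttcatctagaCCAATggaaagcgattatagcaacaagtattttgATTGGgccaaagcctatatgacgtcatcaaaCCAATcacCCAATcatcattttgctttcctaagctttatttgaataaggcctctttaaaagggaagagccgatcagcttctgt
The region of H2bc8 holds an octamer 59 bases and a TATAAA 43 bases before its start, and the region of H2bc11 holds 5 CCAAT matches and neither of the other letters.

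H2ac8 stood at 1.58, 1.70 and 1.18 FPKM in Ctrl, 1.21, 1.35 and 1.26 in VHH-OD-Fc, 1.90, 1.47 and 2.25 under VHH-PD-1-Fc and 2.52, 3.92 and 2.56 in VHH-OD-PD-1-Fc. It rose for VHH-OD-PD-1-Fc relative to Ctrl, with a log2 fold change of 0.67 ± 0.16 (SE, limma adjusted p = 0.0063), while H2bc8 fell with -1.30 ± 0.39 (SE, limma adjusted p = 0.021). The rise of H2ac8 was not called with length and GC trends removed, and the fall of H2bc8 was not called with quantile normalization or without Ctrl 2, nor without library 1 or library 2 of VHH-OD-PD-1-Fc. Neither was called when the libraries with both arms were counted as 1 sample. In the other pair both genes were called higher: H2ac11 as given above, and H2bc11 at 1.80, 1.14 and 1.37 in Ctrl and 2.0, 4.32 and 3.03 in VHH-OD-PD-1-Fc, by 0.73. Of the other pairs, H2ac23 rose while its untested partner H2bc23 had a mean of 0.740 FPKM in Ctrl and 0.431 with both arms, without overlap of the libraries. Of the windows of H2bc23, 92.4% occur in another gene. In the pairs H2bc13/H2ac13, H2ac15/H2bc15, H2ac22/H2bc22 and H2ac12/H2bc12 both genes had a higher mean with both arms than in Ctrl. In H2bc7/H2ac7 both had a lower mean. Of the windows of H2bc8, 39.0% occur in another gene, and of those of H2ac8, 24.5%.

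**Figure D4:**
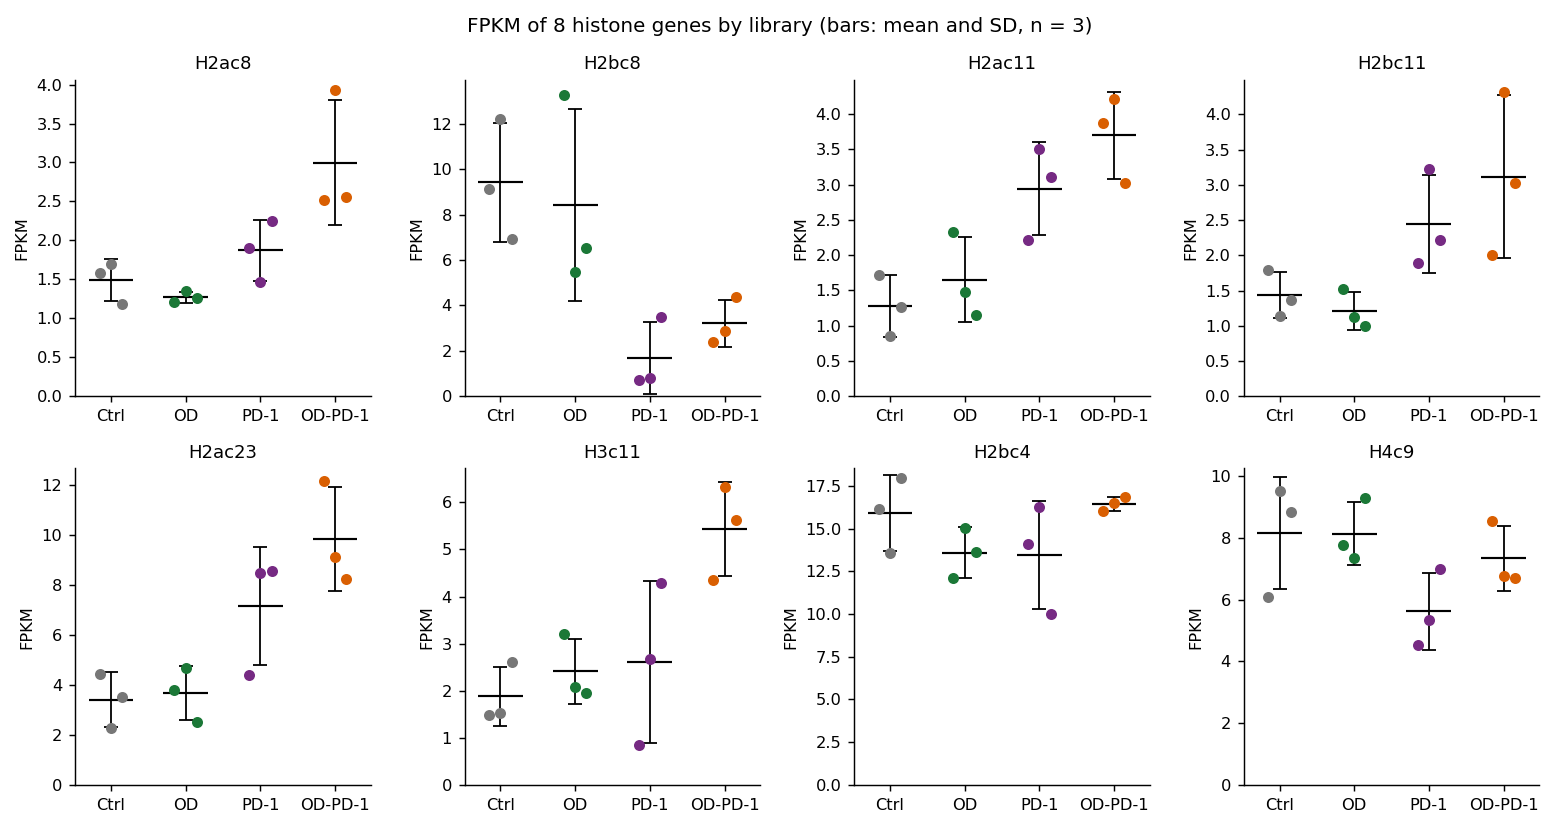
FPKM of 8 histone genes in each library (y axes from 0; points are libraries, lines and bars are mean and SD of 3 libraries; OD, PD-1 and OD-PD-1 stand for the VHH-Fc constructs). H2bc8 lies at 0.708 to 4.38 in the 6 libraries with the PD-1 arm and at 5.48 to 13.3 in the others, while its neighbour H2ac8 is highest in VHH-OD-PD-1-Fc.

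Promoters of the histone genes, taken as 250 bases before to 50 after the start, shared these letters more widely. RefSeq (GRCm38.p6) gave 47 promoters for 46 of the 58 genes. Searched on both strands, CCAAT was in 39 of them (83%, beside 37.4% of all 32851 promoters), including all 14 of H2A, all 14 of H2B and all 8 of H3 but 3 of 11 of H4. TATAAA was in 28 (59.6%, beside 13.6%). The octamer ATTTGCAT was in 11 (23.4%, beside 1.74%), 5 of H2A and 6 of H2B, with no match in H3 or H4. Matches of different motifs may overlap, and a match is a description of the sequence only.

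VHH-OD-PD-1-Fc against VHH-OD-Fc addresses the PD-1 arm added to the OD arm. Here 12 of the 35 were called higher and 1, H2bc8, lower, where 15.4% of all genes were called higher and 24.5% lower. Among the other genes under 1000 bases 36.2% were called higher, beside 36.7% of the 30 short histone genes. With length and GC trends removed, 8 were called higher and 1 lower, with a median of 0.41 in place of 0.64. This comparison shares the VHH-OD-PD-1-Fc libraries with the one against Ctrl. Among the called genes the largest rises were those of H2ac24 (1.58 ± 0.31, SE), H2ac23 (1.23), H3c6 (1.12), H3c3 (1.12), H2bc12 (1.10), H4c6 (1.07), H3c11 (0.92) and H4c4 (0.89), on the log2 scale. Of these, H3c3, H3c6, H2bc12 and H4c4 passed the filter only through the groups where they were high, and the count of 12 includes them. H4c11, at 1.04, 1.23 and 0.467 FPKM in VHH-OD-Fc and 1.84, 3.70 and 1.53 in VHH-OD-PD-1-Fc, was called here (limma adjusted p = 0.040). The H2bc8 call (-1.10, limma adjusted p = 0.044) was lost in 13 of 25 alternatives. Counted as 1 sample, the VHH-OD-PD-1-Fc libraries gave 1 gene called higher and 0 lower.

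VHH-OD-PD-1-Fc against VHH-PD-1-Fc addresses the OD arm added to the PD-1 arm. No histone gene was called by limma, where 0.538% of all genes were called higher and 0.301% lower. At an unadjusted p under 0.05 there were 7 of 35, beside 15.5% of all genes. Log2 fold changes were positive for 32 of the 35 (91.4%, beside 57.9% of all genes), with a median of 0.35 beside 0.04. Some of the 35, such as H3c6 and H2bc22, passed the filter only through VHH-OD-PD-1-Fc libraries, so these signs are not independent of the filter. Without the filter, 44 of the 58 had a higher mean than in VHH-PD-1-Fc (75.9%, beside 54.8% of all rows). The smallest p was that of H4c18, with 1.98, 2.29 and 3.19 FPKM under VHH-PD-1-Fc and 6.18, 3.59 and 4.55 in VHH-OD-PD-1-Fc, with a log2 fold change of 0.72 ± 0.21 (SE, limma adjusted p = 0.13). Without VHH-PD-1-Fc 3, 2 histone genes were called higher. The larger number of genes called against Ctrl with both arms than with the PD-1 arm alone is therefore not shown to be a difference between the 2 constructs.

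The difference from additivity, the log2 effect of both arms minus the effects of the single-arm constructs, was called for no histone gene by limma (0.112% of all genes were called), with 6 of 35 at an unadjusted p under 0.05, beside 11.9% of all genes. The smallest p was that of H3c6 (1.06 ± 0.35, SE, limma adjusted p = 0.27). Doses in mg/kg differ between the constructs, so the sum of single effects is not dose-matched. The F test over the 4 groups called 10 of the 35 (28.6%), beside 49.7% of all genes.

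Companion genes are counted here beside the shares over all genes, which were 14.6% higher and 32.3% lower for VHH-PD-1-Fc and 15.1% higher and 27.1% lower for the construct with both arms, each against Ctrl. Over all genes more were thus called lower than higher. Among the genes that make and destroy histone mRNA, of 25 tested, 1 rose and 14 fell in VHH-PD-1-Fc against Ctrl, with a median log2 fold change of -0.36, and 2 rose and 11 fell in VHH-OD-PD-1-Fc, with a median of -0.24, beside medians of -0.19 and -0.14 over all genes. Npat, the coactivator of histone genes in S phase, fell from 4.24, 3.40 and 3.95 FPKM in Ctrl to 1.83, 2.0 and 2.13 in VHH-PD-1-Fc and 2.02, 2.32 and 2.28 in VHH-OD-PD-1-Fc. Upf1, a helicase of histone mRNA decay, fell by 0.95 and 0.82 on the log2 scale, and Tut7, which adds uridines to RNA ends, by 0.91 and 0.82. Slbp, the stem-loop binding protein, was at 12.2, 9.60 and 10.6 in Ctrl and 7.18, 6.03 and 10.4 in VHH-PD-1-Fc, a fall of 0.44 on the log2 scale. In VHH-OD-PD-1-Fc it was at 8.28, 9.62 and 9.66 (log2 fold change -0.21, not called). Lsm10, a protein of U7 snRNP, rose by 0.53 and 0.63.

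Among variant histones that are made outside S phase, where 14.6% and 15.1% of all genes were called higher, of 11 tested, 3 rose and 1 fell in VHH-PD-1-Fc and 4 rose and 1 fell for VHH-OD-PD-1-Fc relative to Ctrl, with medians of 0.21 and 0.41. H2az1 (H2A.Z) was at 151, 188 and 164 FPKM in Ctrl and 229, 234 and 228 in VHH-OD-PD-1-Fc, a log2 fold change of 0.46 ± 0.11 (SE, limma adjusted p = 0.0058). H3f3b, which encodes H3.3, was at 338, 457 and 404 against 436, 411 and 428, with a log2 fold change of 0.10 that was not called. H2aj fell by 0.64. H3f3b alone thus stood above the sum of all 58 replication-dependent genes in every library.

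The linker histone genes H1f1 to H1f5, which lie in the same gene clusters, were added after their symbols were seen. H1f2 was the highest, at 45.5 to 68.3 FPKM over the 12 libraries, above H2bc4, with a log2 fold change of -0.22 for VHH-OD-PD-1-Fc relative to Ctrl that was not called. H1f4 rose from 1.90, 1.60 and 2.15 in Ctrl to 4.6, 5.05 and 4.89, and H1f5 from 3.20, 1.48 and 2.09 to 7.35, 8.27 and 8.70 in VHH-OD-PD-1-Fc, by 1.0 and 1.52 on the log2 scale.

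Markers of DNA replication and division are read beside 14.6% of all genes called higher and 32.3% lower with the PD-1 arm alone, and 15.1% and 27.1% with both arms. Of 36 S phase and replication genes tested, 2 rose and 18 fell in VHH-PD-1-Fc, with a median of -0.32, and 6 rose and 7 fell in VHH-OD-PD-1-Fc, with a median of 0.02. Of 18 G2 and M phase genes, 11 fell in VHH-PD-1-Fc, and 2 rose and 3 fell in VHH-OD-PD-1-Fc. Pcna, the replication clamp, was at 63.8, 50.6 and 58.6 FPKM in Ctrl and 78.8, 82.8 and 83 in VHH-OD-PD-1-Fc, with a log2 fold change of 0.50 (limma adjusted p = 0.062). Mki67, the Ki-67 antigen of dividing cells, fell from 16.4 to 24.4 in Ctrl to 9.67, 9.55 and 9.43 in VHH-OD-PD-1-Fc and 5.39, 6.57 and 12.5 in VHH-PD-1-Fc. Among 24 histone chaperones, with counts for both arms near those shares, 10 fell in VHH-PD-1-Fc, and 4 rose and 7 fell in VHH-OD-PD-1-Fc. Chaf1a, which brings new histones to the replication fork, fell by 0.96 and 0.84.

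A list of other RNAs, taken as mostly without a poly(A) tail, is given beside the histone genes. How far the bead selection retained each of them was not tested, so they do not measure the capture of RNA without a tail. Of 19 in the table, 9 were tested. Against Ctrl, 2 rose and 2 fell in VHH-PD-1-Fc, where 14.6% of all genes were called higher and 32.3% lower. In VHH-OD-PD-1-Fc 0 rose and 2 fell, where 15.1% of all genes were called higher and 27.1% lower. Those that rose in VHH-PD-1-Fc were Vaultrc5, a vault RNA, by 1.60 and Scarna2, a small Cajal body RNA, by 0.59 on the log2 scale. Malat1 and Neat1, long nuclear RNAs, fell: Malat1 from 48.2, 51.9 and 40.6 FPKM in Ctrl to 15.2, 10.4 and 19.0 in VHH-PD-1-Fc and 10.9, 10.9 and 11.1 in VHH-OD-PD-1-Fc. Rn7sk, a small nuclear RNA that is not polyadenylated, was at 40.5, 5.81 and 31.0 in Ctrl, 9.25, 6.67 and 14.5 in VHH-OD-Fc, 55.0, 112 and 38.5 under VHH-PD-1-Fc and 14.2, 31.7 and 20.1 in VHH-OD-PD-1-Fc. Its mean was highest in VHH-PD-1-Fc, with overlap of the groups, and it was not called against Ctrl (limma adjusted p = 0.054 and 0.94). The part of RNA selection in the histone results was not tested.

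Markers of other cells are read beside the same shares of all genes, 32.3% and 27.1% lower and 14.6% and 15.1% higher. Fibroblast markers fell in 6 of 6 genes in VHH-PD-1-Fc and 2 of 6 for VHH-OD-PD-1-Fc relative to Ctrl, with summed levels of 551 to 787 FPKM in Ctrl, 218 to 445 and 531 to 536. T cell markers fell in 2 of 5 tested genes in both. Neutrophil markers rose in 2 of 5 genes in VHH-OD-PD-1-Fc (620 to 910 in Ctrl, 1895 to 1952) and fell in 2 of 5 in VHH-PD-1-Fc (398 to 1200). Tumour epithelial markers had 1 of 6 called higher in VHH-PD-1-Fc and 0 of 6 in VHH-OD-PD-1-Fc, and were present in every library (1183 to 3632). Macrophage markers fell in 1 of 5 genes in both. Skeletal muscle markers ranged from 5.37 to 1987 over the libraries, with none called in the comparisons with Ctrl, nor was any erythroid marker. Of 3 tested adipocyte markers Fabp4 fell in VHH-PD-1-Fc against Ctrl by 1.86 on the log2 scale, and of 2 tested B cell markers Cd79b fell by 1.61 with both arms. Against VHH-OD-Fc, the construct with both arms had 3 of 3 adipocyte and 5 of 6 fibroblast markers called lower, where 24.5% of all genes were. The part of cell composition in the histone results was not tested.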

How the data were processed

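The authors deposited 1 table of FPKM values, with 12 library columns and 41009 symbols. Per the labels, poly(A) RNA was selected and read as pairs of 150 bp. Per the submitters' processing notes, fastp 0.22.0 and HISAT2 2.2.1 were used with a human build, although the symbols are mouse. The FPKM tool, annotation, strand setting and handling of reads that match several copies: not given in the sources used here. Groups were taken from the sample labels, from which the design text of the series departs. The histone genes, companion lists and tests were chosen with earlier results of these data known.

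Values were tested as log2(FPKM + 1) with limma 3.58.1 (R 4.3.3, variance trend) in 1 fit of all 12 libraries, with 14306 genes at FPKM 1 or more in 3 libraries and Benjamini-Hochberg adjustment at 0.05. The fit was tested on simulated data. Reads per gene were recovered from the FPKM steps with GENCODE M21 exon lengths: 93.7% to 95.1% of low values per library lay within 0.05 of a whole number, and all 493 histone values up to 100 reads within 0.1. Named genes were, per comparison, up to 8 called histone genes per direction, the 10 highest, the highest per class and name group, testis-named genes, those beside the filter, and from companion lists up to 4 called genes of smallest p plus Slbp, Npat, Mki67, Pcna, H2az1 and H3f3b; genes named outside this rule (H2bc13, H2bc22, H3c8, H4c1, Lsm10, Rn7sk, H1f2) were chosen after their values were seen. The male germ cell markers found in the table were all named. Replicate numbers were not used as pairs. Alternatives are listed in the closing section.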

Additional observations from a re-analysis of the deposited data

How the results depend on the processing

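For the histone genes, 25 alternatives were run. In VHH-PD-1-Fc against Ctrl (3 higher, 2 lower) they gave 1 higher and 1 lower without a filter, 5 and 1 with median-of-ratios scaling, 7 and 1 with quantile normalization, 0 higher with library quality weights, 1 and 1 with only the groups compared and with a mean FPKM of at least 5, and 1 lower with VHH-OD-PD-1-Fc as 1 sample and with voom on recovered reads. In VHH-OD-PD-1-Fc relative to Ctrl (13 and 1) they gave 8 higher without a filter, 1 at a mean FPKM of at least 5, 0 and 0 with VHH-OD-PD-1-Fc as 1 sample and 6 with length and GC trends removed, and 2 lower with TPM or quality weights and 0 with quantile normalization. In VHH-OD-PD-1-Fc against VHH-OD-Fc (12 and 1) they gave 19 higher with quality weights, 1 as 1 sample and 1 at a mean FPKM of at least 5, and 0 lower without a filter, with a pseudocount of 0.1, median-of-ratios, quantile or 1 sample. The F test (10) gave 18 with quality weights, 4 as 1 sample and 2 at a mean FPKM of at least 5. A higher filter leaves fewer genes; for the rest the cause was not tested.

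Leaving out 1 library gave 1 to 9 higher and 1 to 2 lower in VHH-PD-1-Fc against Ctrl, 7 to 15 and 0 to 1 in VHH-OD-PD-1-Fc relative to Ctrl, 8 to 16 and 0 to 1 against VHH-OD-Fc, 0 to 2 higher against VHH-PD-1-Fc, and 8 to 16 by the F test. VHH-OD-Fc against Ctrl and the difference from additivity had 0 calls throughout. Leaving out Ctrl 1, VHH-OD-Fc 2 and VHH-PD-1-Fc 2 together gave 9 higher and 1 lower in VHH-OD-PD-1-Fc relative to Ctrl.

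With the replicate number as a block, 10 were called higher and 1 lower in VHH-OD-PD-1-Fc relative to Ctrl, 10 and 0 against VHH-OD-Fc, and 2 and 1 in VHH-PD-1-Fc against Ctrl. Same-numbered libraries of different groups had correlations, after group means were removed, of -0.15 to 0.18. Differently numbered ones had -0.46 to 0.43. With 3 libraries per group, these values cannot settle whether the numbers mark a pairing. Other scaling moved the median of all genes in VHH-PD-1-Fc against Ctrl by 0.19 (median of ratios), 0.18 (quantile) and -0.24 (TPM), and the histone calls there were then 83.3%, 87.5% and 40% higher, beside 60%. Of 1018 values of single histone genes under the alternatives, 831 kept their side of the threshold, 179 lost the call, 8 gained it and 0 of the called ones changed sign, while values that were not called, such as those of H2bc4, H4c9, H4c18 and H4c8, could change sign. Length and GC removal and voom were chosen after seeing the data. Testing class sums as features was not run. Depth limits the lower genes, since 19.3% of all histone values rest on under 10 reads, and multiple gene copies limit which H2A gene a read belongs to.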
